A study of Homo sapiens with 9 samples.

Results

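OV90CisR2, a line of ovarian cancer cells labelled cisplatin-resistant, was compared with OV90, the line labelled sensitive. The comparison used 6 of the 9 libraries of the series, 3 of OV90 and 3 of OV90CisR2, chosen by their column names. The other 3 libraries, from the resistant line OV90CisR1, entered through the shared estimate of the spread and through 1 further contrast between the resistant lines. Per the labels, OV90 cells were kept in MCDB-105 medium with serum, and both resistant lines were kept in the same kind of medium containing cisplatin, a platinum drug that forms crosslinks in DNA. No dose, time or drug-free control of a resistant line is given in the labels, so resistance and exposure to the drug cannot be told apart. Each resistant line is 1 line, and the labels do not say that replicates came from different cultures, so p-values cover only the spread between these samples, which may be technical. Messenger RNA was read from its 3' end with a QuantSeq kit, and 14233 of 43424 gene symbols reached 1 CPM in at least 3 of the 9 libraries and were tested. Values are the deposited normalised reads, 1 value per library in the order of replicates 1 to 3, and fold changes were computed from log2(value + 1), which understates the change of genes with low values. A log2 value followed by ± is the fold change of OV90CisR2 against OV90 with its SE, and the adjusted p beside it is that of limma with Benjamini-Hochberg adjustment.

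The results fall under a few areas of cell biology. Cyclic AMP and cyclic GMP are second messengers made by cyclases after receptor stimulation and destroyed by phosphodiesterases, and cyclic AMP acts in part through the transcription factors CREB, CREM and ATF1, which bind the palindrome TGACGTCA. The HOX genes encode homeodomain transcription factors in 4 clusters, A to D, which are switched on in blocks during development and give cells a positional identity. H/ACA small nucleolar RNAs, named SNORA, guide the conversion of uridine to pseudouridine in ribosomal RNA, C/D small nucleolar RNAs, named SNORD, guide its 2'-O-methylation, and small Cajal body RNAs, named SCARNA, guide the same changes in spliceosomal RNA. Most are cut out of the introns of other genes.

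The following sequences belong to the gene with the largest rise and to the small RNAs described further on. CGA encodes the common alpha subunit of the glycoprotein hormones (chromosome 6, 87085498 to 87095106 in the RefSeq annotation of GRCh38.p14, minus strand). The 250 bases before its annotated start, chr6:87095107-87095356 on GRCh38.p14, minus strand, are shown 5' to 3' from RefSeq because they hold the palindrome in 2 copies, in capitals.
CGA promoter: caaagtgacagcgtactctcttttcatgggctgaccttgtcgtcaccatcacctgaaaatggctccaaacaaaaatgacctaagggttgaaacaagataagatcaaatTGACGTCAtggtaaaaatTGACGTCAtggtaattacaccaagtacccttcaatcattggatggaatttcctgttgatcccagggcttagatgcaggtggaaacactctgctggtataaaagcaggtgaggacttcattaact
The copies begin 142 and 124 bases before the start and are spaced 18 bases apart. The second set shows H/ACA small nucleolar RNAs, 5' to 3', from the GENCODE 29 transcripts on GRCh38. Capitals mark ACA placed 3 bases before the end, the box that gives the class its name. SNORA44, which also rose, has no ACA at this place in the same annotation and is not printed.
SNORA62: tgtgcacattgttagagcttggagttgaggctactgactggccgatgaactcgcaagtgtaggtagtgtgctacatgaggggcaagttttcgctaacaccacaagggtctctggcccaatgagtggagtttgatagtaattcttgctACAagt
SNORA67: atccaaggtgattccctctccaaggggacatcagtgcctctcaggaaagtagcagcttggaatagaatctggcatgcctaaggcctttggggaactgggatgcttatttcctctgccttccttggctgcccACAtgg
SNORA80E: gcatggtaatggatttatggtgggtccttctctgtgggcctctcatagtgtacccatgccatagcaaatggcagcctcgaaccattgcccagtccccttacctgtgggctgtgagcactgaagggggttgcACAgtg
Their places are chromosome 3, 39411054 to 39411206 on the plus strand, chromosome 17, 7577955 to 7578091 on the plus strand, and chromosome 1, 155919909 to 155920045 on the minus strand.

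The 9 libraries held between 5825708 and 7607679 reads, and 3 reads corresponded to between 2.62 and 3.37 normalised reads. OV90 replicate 3 stood apart from the other OV90 libraries, with correlations of 0.955 and 0.957 against 0.979 between those, and OV90CisR1 replicate 3 stood apart from its own group. Counts are therefore also given without these 2 libraries. Of 16 markers of ovarian carcinoma, 7 had 0 reads in all 6 libraries, among them PAX8, MUC16, KRT7 and KRT19, so the label of the cells was not borne out by these markers. EPCAM, an epithelial adhesion molecule, had 140 reads over the OV90 libraries and 116 over OV90CisR2. KRT8, a keratin, had 35 and 221 reads and rose, the 1 call among the 2 carcinoma markers tested. Of the markers of other cells, 5 of 10 of endothelium, 5 of 12 of leukocytes, 11 of 19 of trophoblast and 4 of 10 of granulosa and theca cells had 0 reads in all 6 libraries, and 0 of 10 neuronal markers did. At 0 were PECAM1, VWF and KDR of endothelium, CD3E and MS4A1 of leukocytes, CGB3 and PSG1 of trophoblast, and FSHR, CYP11A1 and LHCGR of granulosa and theca cells. With reads were CD68 of leukocytes (155 reads over the OV90 libraries and 113 over OV90CisR2), GATA3 of trophoblast (1335 and 3219, limma adjusted p = 0.052), and FOXL2 and AMH of granulosa cells (632 and 577, and 124 and 301).

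In OV90CisR2, 468 of 14233 tested genes passed the threshold of an adjusted p of 0.05 against OV90, or 3.29%. Of all tested genes 2.35% rose and 0.941% fell. The change was 2-fold or more in 317 genes, or 2.23% of those tested, 258 higher and 59 lower. The libraries of OV90 and OV90CisR2 did not overlap for any of the 468 genes, against 27.0% of all tested genes whose groups did not overlap. Without the 2 libraries that stood apart, 3633 genes passed, or 25.5%, and all 468 were among them in the same direction. Omitting 1 library moved the count to 223 (OV90 replicate 1), 274 (OV90 replicate 2), 1312 (OV90 replicate 3), 1071 (OV90CisR1 replicate 3) and 184, 196 and 177 (OV90CisR2 replicates 1 to 3). Against OV90CisR1, 204 of the 468 genes differed, with 156 of the rises higher and 39 of the falls lower in OV90CisR2, where 10.1% of all tested genes differed between the resistant lines. The 468 genes were chosen with the same OV90CisR2 libraries, so these counts and directions are in part set by that choice. In 38 of the 334 rises, all 3 OV90 libraries had 0 reads.

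**Figure D1:**
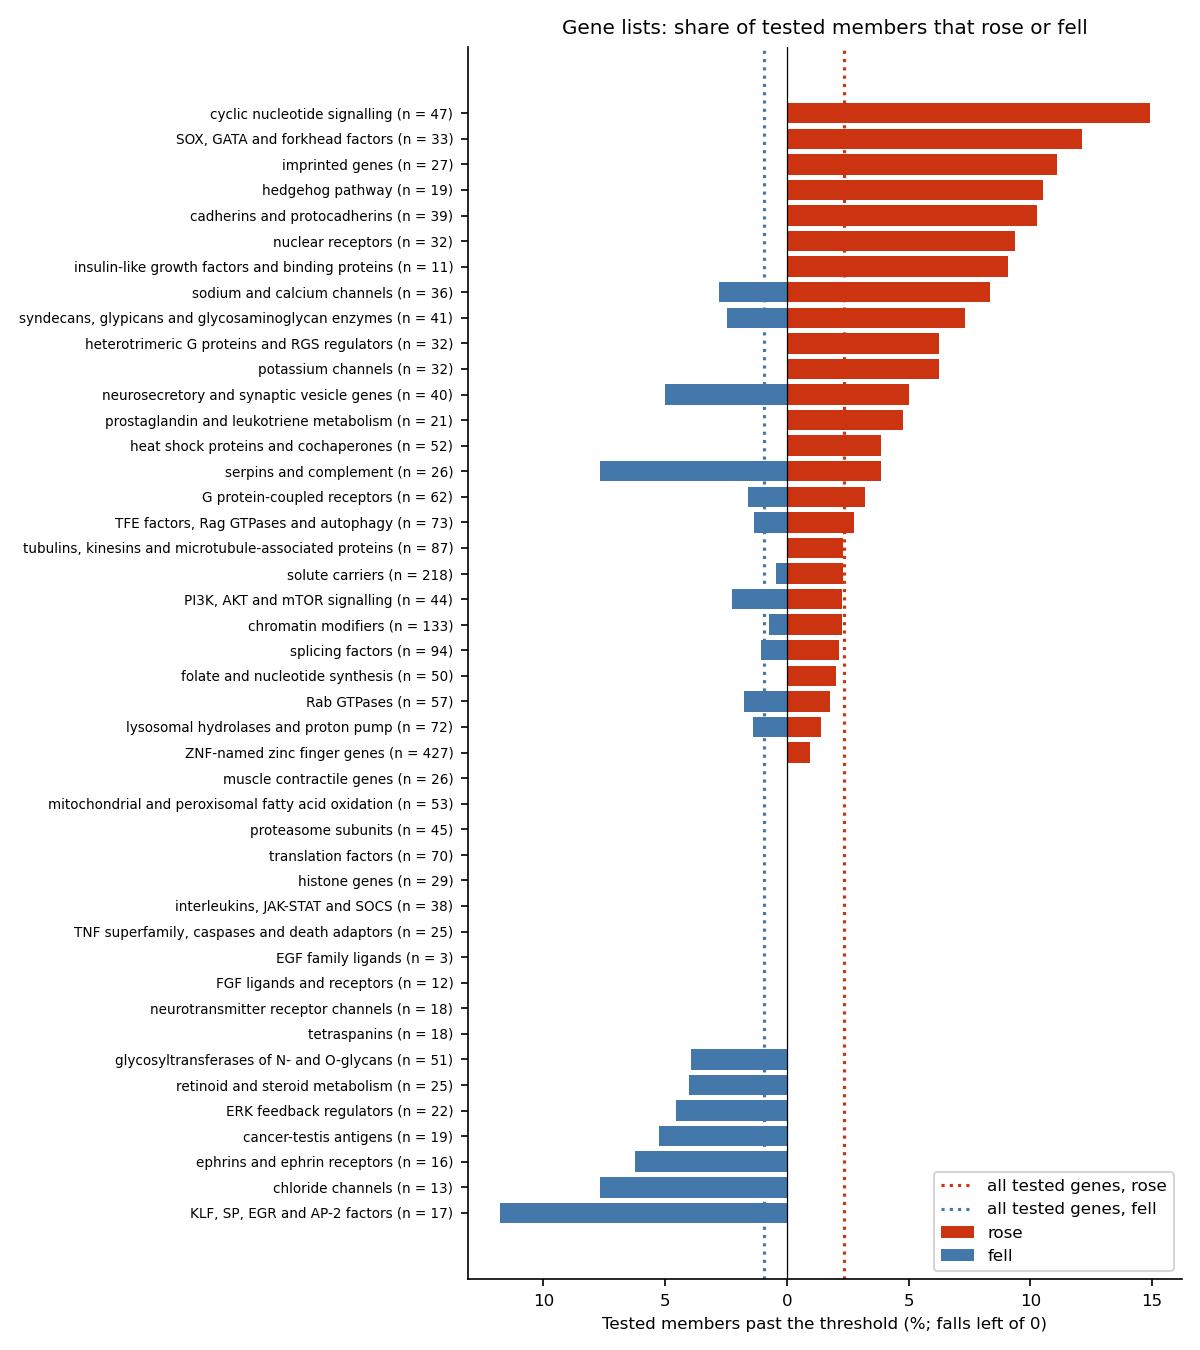
Share of the tested members of 44 of the 45 gene lists, in percent, that rose (red, right) or fell (blue, left) in OV90CisR2 against OV90, with the number tested in brackets and dotted lines at the shares over all tested genes. Cyclic nucleotide signalling had the highest share of rises, 14.9%, mostly of genes under 1 CPM in OV90 that passed the filter through the resistant lines. No bar is drawn for 11 lists.

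Several genes of cyclic nucleotide signalling rose in OV90CisR2. Of 47 tested genes of this list, 7 rose and none fell, 14.9% against 2.35% of all tested genes that rose, with a median log2 fold change of 0.10 against 0.00 over all tested genes. Of these rises, PDE10A, PDE4B, PDE3A, PRKG1 and GUCY1B1 lay under 1 CPM in every OV90 library. They were tested only because the resistant lines had reads, so their direction is in part set by the filter, and nothing is read from the share. Without the 2 libraries that stood apart, 13 rose and 3 fell, and with any 1 library left out between 5 and 8 members were called. Among the genes that passed were 4 phosphodiesterases of 14 tested, a subgroup formed after its values were seen.

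PDE10A, a phosphodiesterase of both cyclic nucleotides (chromosome 6, 165327289 to 165988052), had 2.06, 1.95 and 1.8 normalised reads in the OV90 libraries and 61.4, 45.5 and 47.5 in the OV90CisR2 libraries, a log2 change of 4.15 ± 0.35 (SE; limma adjusted p = 5.02e-05). The OV90 values lay under 3 reads, and the OV90CisR2 values were all far above them. OV90CisR1 had 8.22 ± 1.61 (SD, n = 3), and the resistant lines differed by 2.51 ± 0.35 on the log2 scale (SE; limma adjusted p = 0.00197). PDE4B, specific for cyclic AMP, had 1.03, 5.84 and 0.899 in OV90 and 58.3, 51.6 and 63.3 in OV90CisR2, a change of 4.30 ± 0.49 (SE; limma adjusted p = 0.00054). PDE3A, which cyclic GMP inhibits, had 6.17, 1.95 and 2.7 and 68.6, 49.9 and 68.6, a change of 3.87 ± 0.42 (SE; limma adjusted p = 0.00036). OV90CisR1 had 9.64 ± 1.79 and 18.1 ± 7.43 (SD, n = 3), between the other lines. PDE4D, a further cyclic AMP phosphodiesterase, was abundant in every library, with 598, 687 and 1136 in OV90 and 1827, 1721 and 1595 in OV90CisR2, a change of 1.14 ± 0.21 (SE; limma adjusted p = 0.012). OV90 replicate 3 had the highest OV90 value of PDE4D.

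CREM, a transcription factor that cyclic AMP activates or that represses its targets depending on the isoform (chromosome 10, 35126846 to 35212958), had 158, 156 and 84.5 normalised reads in OV90 and 365, 329.8 and 362 in OV90CisR2, a log2 change of 1.45 ± 0.24 (SE; limma adjusted p = 0.0065). PRKG1, the cyclic GMP-dependent protein kinase, had 2.06, 0 and 0 and 26.6, 23.6 and 24.6, a change of 4.16 ± 0.64 (SE; limma adjusted p = 0.0047), and OV90CisR1 had 1.05 ± 1.06 (SD, n = 3). GUCY1B1, a subunit of the nitric oxide receptor guanylate cyclase, had 1.03, 0 and 0 and 8.19, 12.2 and 7.92 (log2 3.02 ± 0.59, adjusted p = 0.018). The calls for PDE4D and GUCY1B1 were lost without OV90 replicate 2 or any OV90CisR2 library, and that for PDE4D also without OV90 replicate 1, with adjusted p-values of limma up to 0.078 and 0.11. The palindrome TGACGTCA, which reads the same on both strands, was searched in the promoter windows of RefSeq, 250 bases before to 50 bases after each start. It was present in 3.35% of 11004 tested genes with a window, in 12 of 243 rises (4.94%), in 6 of the 180 rises of 2-fold or more (3.33%), in 2 of 106 falls (1.89%) and in 1 of 40 genes of the cyclic nucleotide list (2.50%). Among the rises with the palindrome, CGA was the 1 with 2 copies. Copies were not counted outside the rises, and whether the palindrome bears on any rise was not tested.

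**Figure D2:**
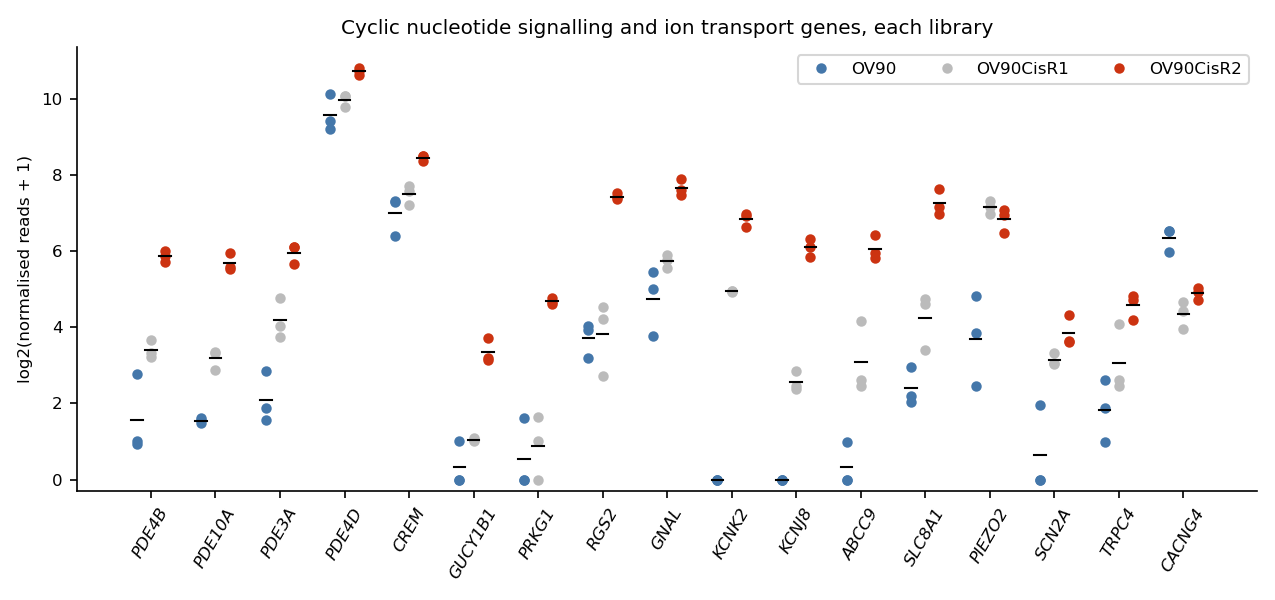
Each point is 1 library of OV90 (blue), OV90CisR1 (grey) or OV90CisR2 (red), the vertical axis is log2(normalised reads + 1), and bars are group means over 3 libraries. KCNK2 and KCNJ8 lie at 0 in all 3 OV90 libraries, and CACNG4 is the 1 gene drawn that fell.

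Upstream of these messengers, 2 of 32 tested G protein and RGS genes rose and none fell (6.25% called, against 3.29% of all tested genes). RGS2, which shortens signals of Gq-coupled receptors, had 14.4, 15.6 and 8.09 normalised reads in OV90 and 165, 171 and 185 in OV90CisR2, a log2 change of 3.72 ± 0.44 (SE; limma adjusted p = 0.00064). GNAL, a G protein alpha subunit that stimulates adenylyl cyclase, had 43.2, 31.1 and 12.6 and 178, 194 and 239, a change of 2.92 ± 0.37 (SE; limma adjusted p = 0.000995). RGS2 had 15.2 ± 8.58 in OV90CisR1, against 12.7 ± 4.02 in OV90 (SD, n = 3), and the resistant lines differed by 3.62 ± 0.44 (SE; limma adjusted p = 0.00091). Of 62 G protein-coupled receptors, 2 rose and 1 fell (4.84% called, against 3.29% of all tested genes). ADGRG6, an adhesion receptor that couples to cyclic AMP production in Schwann cells (chromosome 6, 142302007 to 142446261), had 7.2, 6.81 and 17.1 and 241, 208 and 269, a change of 4.51 ± 0.33 (SE; limma adjusted p = 1.3e-05). GPR155 had 91.5, 76.9 and 54.9 and 28.7, 26.2 and 22.9 and fell by 1.46 on the log2 scale (limma adjusted p = 0.0079), a call that was lost without OV90CisR2 replicate 3 (adjusted p = 0.055).

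Of 32 tested potassium channel genes, 2 rose and none fell (6.25% called, against 3.29% of all tested genes). Both were at 0 in OV90 and passed the filter through the resistant lines, so their direction is in part set by the filter. With 1 library omitted, 2 to 5 were called, namely 5 without OV90CisR1 replicate 3, 4 without OV90 replicate 3 and 3 without OV90 replicate 1. KCNK2, the background potassium channel TREK-1 (chromosome 1, 215005542 to 215237090), had 0 reads in each OV90 library and 99.3, 122 and 127 normalised reads in OV90CisR2, at least 37.6-fold higher when the OV90 mean is put at 3 reads of the library where a read weighs most (limma adjusted p = 8.5e-07). OV90CisR1 had 30 ± 0.323 (SD, n = 3). KCNJ8, the pore subunit Kir6.1 of ATP-sensitive channels (chromosome 12, 21764955 to 21774706), had 0 reads in each OV90 library and 57.3, 79.6 and 68.6 in OV90CisR2, at least 22.2-fold higher (limma adjusted p = 7.1e-06). Its regulatory partner ABCC9, the sulfonylurea receptor SUR2, lies beside it on chromosome 12 and had 0, 0.973 and 0 and 61.4, 85.7 and 55.4, a log2 change of 5.75 ± 0.53 (SE; limma adjusted p = 0.000101). Both subunits of this channel type were thus higher in all 3 OV90CisR2 libraries than in any OV90 library.

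Of 36 sodium and calcium channel genes, 3 rose and 1 fell (11.1% called, against 3.29% of all tested genes). The median log2 fold change of the list was -0.07. Of the rises, SCN2A and TRPC4 lay under 1 CPM in every OV90 library and passed the filter through the resistant lines. Their direction is thus in part set by the filter, and nothing is read from the share. PIEZO2, a mechanically gated channel, had 13.4, 27.3 and 4.5 normalised reads in OV90 and 134, 123 and 88.9 in OV90CisR2, a change of 3.13 ± 0.47 (SE; limma adjusted p = 0.0036), and OV90CisR1 had 143 ± 16.2 (SD, n = 3). SCN2A, a voltage-gated sodium channel, had 0, 2.92 and 0 and 11.3, 19.2 and 11.4, and TRPC4, a cation channel, had 5.14, 0.973 and 2.7 and 25.6, 17.5 and 27.3. CACNG4, an auxiliary calcium channel subunit, had 92.5, 91.5 and 62.1 and 29.7, 25.4 and 31.7 and fell by 1.46 on the log2 scale (limma adjusted p = 0.017). The calls for SCN2A, TRPC4 and CACNG4 were lost without any 1 OV90CisR2 library, and each also without OV90 replicate 1, replicate 2 or either, respectively (limma adjusted p up to 0.087, 0.12 and 0.088). Of 218 solute carriers, 5 rose and 1 fell (2.75% called, a share near the 3.29% of all tested genes). SLC8A1, the sodium-calcium exchanger NCX1 (chromosome 2, 40097270 to 40512435), had 3.08, 6.81 and 3.6 and 126, 199 and 143, a change of 4.87 ± 0.41 (SE; limma adjusted p = 5e-05). SLC17A5, the lysosomal sialic acid exporter, had 569.7, 556 and 417 and 283, 283 and 279, and OV90CisR1 had 999 ± 120.4 (SD, n = 3). It thus fell in OV90CisR2 by 0.85 on the log2 scale (limma adjusted p = 0.011) and lay below OV90CisR1 by more, a difference of -1.82 ± 0.15 (limma adjusted p = 0.00011). The fall of SLC17A5 against OV90 was lost without OV90 replicates 1 or 2 or any OV90CisR2 library (adjusted p up to 0.062). Of 13 chloride channel genes ANO7 fell, a call that held only when the omitted library was OV90 replicate 3 or OV90CisR1 replicate 3 (limma adjusted p up to 0.17).

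Among the largest rises outside these lists was PDK4, pyruvate dehydrogenase kinase 4, which blocks the entry of pyruvate into the citric acid cycle (chromosome 7, 95583499 to 95596516). It had 4.11, 6.81 and 0 normalised reads in OV90 and 1699, 1692 and 1948 in OV90CisR2, a log2 change of 9.02 ± 0.57 (SE; limma adjusted p = 4.9e-06), and was described after its values were seen. OV90CisR1 had 141 ± 16 (SD, n = 3), and the resistant lines differed by 3.65 ± 0.57 (SE; limma adjusted p = 0.0034). CD34, a sialomucin known from blood stem cells and endothelium (chromosome 1, 207880972 to 207911125), had 2.06, 2.92 and 0.899 and 296, 311 and 298, a change of 6.74 ± 0.36 (SE; limma adjusted p = 1.7e-06). The endothelial markers PECAM1, VWF and KDR were at 0 in the same libraries, and the summed level of 10 endothelial markers was 1.03 to 6.81 in OV90 and 0.880 to 5.25 in OV90CisR2. COL11A1, a fibrillar collagen chain (chromosome 1, 102876473 to 103108522), had 12.3, 5.84 and 5.4 and 494, 591 and 472, a change of 5.95 ± 0.30 (SE; limma adjusted p = 1.1e-06). NFIB, a nuclear factor I transcription factor (chromosome 9, 14081843 to 14532077), had 5.14, 4.87 and 0.899 and 291, 277 and 295 (log2 6.14 ± 0.41, adjusted p = 7.1e-06). MTUS1, a microtubule-associated protein, had 3.08, 0.973 and 6.3 and 322, 353 and 315 (log2 6.41 ± 0.43, adjusted p = 7.97e-06). The OV90CisR1 means of these genes lay between those of OV90 and OV90CisR2.

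Smaller rises with higher starting levels included regulators of signalling and of the cytoskeleton. ERRFI1, a feedback inhibitor of the EGF receptor (chromosome 1, 8011727 to 8026309), had 30.8, 24.3 and 17.1 normalised reads in OV90 and 237, 213 and 273 in OV90CisR2, a log2 change of 3.30 ± 0.23 (SE; limma adjusted p = 1.03e-05). LIMA1, an actin-bundling protein, had 339, 267 and 278 and 1559.7, 1764 and 1692 (log2 2.51 ± 0.14, adjusted p = 2.4e-06). HOMER1, a scaffold of glutamate receptor signalling, had 192, 170.3 and 206 and 548, 567 and 553 (log2 1.55 ± 0.14, adjusted p = 0.000101). RBM20, a splicing regulator known from heart muscle, had 181, 208 and 321 and 907, 916 and 760.1 (log2 1.90 ± 0.20, adjusted p = 0.00029). As for every called rise, the lowest OV90CisR2 library lay above the highest OV90 library. For each of these genes the call was kept when any 1 library was left out.

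Genes with 0 reads in all 3 OV90 libraries covered several functions and passed the filter through the resistant lines. GRB14, an adaptor that inhibits insulin receptor signalling (chromosome 2, 164492417 to 164621482), reached 109.5, 115 and 128 normalised reads in OV90CisR2, at least 38.2-fold higher (limma adjusted p = 3.99e-06). NR5A2, the nuclear receptor LRH-1 (chromosome 1, 200027710 to 200177415), reached 108, 111 and 130.2, at least 37.8-fold higher (limma adjusted p = 1.4e-05), while OV90CisR1 had 4.21 ± 2.71 (SD, n = 3). NTS, the peptide neurotensin, reached 95.2, 80.5 and 119, at least 31.8-fold higher (limma adjusted p = 4.9e-06), and had 59.2 ± 36.1 in OV90CisR1. The resistant lines were not called different for NTS (0.87 ± 0.42 on the log2 scale, limma adjusted p = 0.198). MEF2C, a muscle and neural transcription factor, reached 73.7, 102 and 103, at least 30.1-fold higher, and PREX2, an activator of Rac, reached 83.9, 74.4 and 80.9, at least 25.8-fold higher (limma adjusted p = 2.2e-06 and 2.3e-05). CD36, a fatty acid transporter and scavenger receptor chosen after its values were seen, reached 42, 30.6 and 57.2, at least 14-fold higher (limma adjusted p = 8.2e-05).

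HOXD genes rose, and 1 gene each of HOXB and HOXC fell. Of the HOXD cluster 6 of 6 tested genes rose, against 2.35% of all tested genes. Of HOXA 0 of 9 were called by limma or edgeR and 1 by DESeq2 (1 at an unadjusted p under 0.05), of HOXB HOXB5 fell among 8, and of HOXC HOXC10 fell among 9. The 4 families were formed after the values were seen, and 3 HOXD genes stayed below the filter, which 6 passed through reads in the resistant lines. HOXD11 (chromosome 2, 176107280 to 176115679) had 5.14, 0.973 and 0 normalised reads in OV90 and 304, 375 and 338 in OV90CisR2, a log2 change of 7.20 ± 0.54 (SE; limma adjusted p = 1.7e-05), and OV90CisR1 had 41 ± 12.3 (SD, n = 3). HOXD10 had 1.03, 0 and 0 and 132, 155 and 133 (log2 6.79 ± 0.41, adjusted p = 3.9e-06), HOXD9 0, 0 and 1.8 and 77.8, 70.9 and 58.9, and HOXD13 1.03, 0.973 and 0 and 23.5, 21.9 and 22. HOXD8 and HOXD3 had 0 reads in OV90 and reached 54.2, 47.2 and 77.4 and 33.8, 24.5 and 29.9, at least 19.3-fold and 9.53-fold higher. Summed over the cluster, the level was 1.80 to 7.20 in OV90, 51.7 to 87.6 in OV90CisR1 and 635 to 705 in OV90CisR2, so the 3 lines did not overlap. The difference between the resistant lines passed the threshold for HOXD11, by 3.06 ± 0.54 (SE; limma adjusted p = 0.0063).

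**Figure D3:**
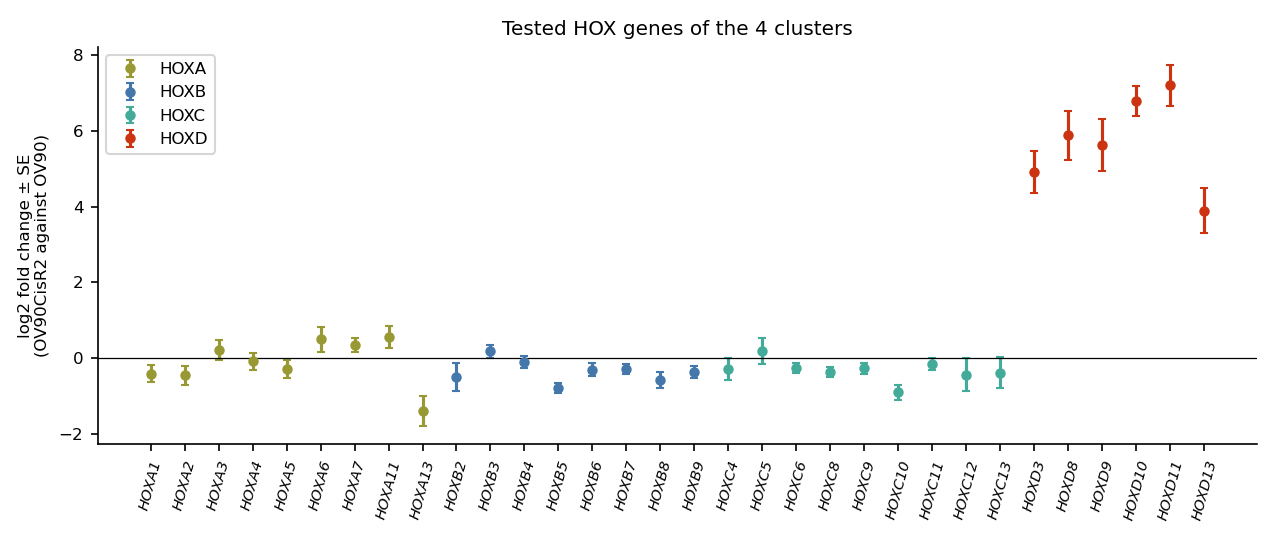
Log2 fold change (OV90CisR2 against OV90, with SE) of each tested HOX gene, coloured by cluster. The 6 HOXD genes lie at 3.88 and above, and the genes of the other clusters at 0.55 and below. The OV90 means of the HOXD genes run from 0 (HOXD3 and HOXD8) to 2.04 (HOXD11), so their values depend on the pseudocount.

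The non-coding genes inside the HOXD cluster rose with their neighbours. MIR10B, the gene of the microRNA miR-10b, had 0 reads in OV90 and 30.7, 38.5 and 34.3 normalised reads in OV90CisR2, at least 11.2-fold higher (limma adjusted p = 0.00016). HAGLR and HAGLROS, long non-coding RNAs, had 0, 0 and 0 and 1.03, 0 and 0 in OV90 and 7.16, 17.5 and 11.4 and 12.3, 15.7 and 10.6 in OV90CisR2. Between 176087487 and 176188958 of chromosome 2, 10 of 10 tested genes rose. None of the 10 reached 1 CPM in all 3 OV90 libraries, so they could be tested only because the resistant lines had reads, and the count supports nothing beyond the values. These genes overlap each other, and without the counting rules reads from either strand cannot be told apart. The HAGLR call was lost without OV90CisR2 replicates 2 or 3 and the HAGLROS call without any 1 OV90CisR2 library (limma adjusted p up to 0.087 and 0.082). In the other clusters HOXB5, 1 of the 5 falls with the most reads, had 8550.4, 8728 and 6825 in OV90 and 4714, 4444 and 4578 in OV90CisR2, a change of -0.80 ± 0.13 (SE; limma adjusted p = 0.0054). Its antisense neighbour HOXB-AS3 had 614, 571 and 367 and 204, 189.8 and 174 (log2 -1.41 ± 0.21, adjusted p = 0.0038). HOXC10 had 2569.8, 2314 and 1454 and 1013, 1232 and 1049.6 (log2 -0.91 ± 0.19, adjusted p = 0.029), with OV90 replicate 3 the lowest of its group, and its call was lost without OV90 replicates 1 or 2 or any OV90CisR2 library (adjusted p up to 0.15). HOXA13 had 92.9 ± 61.4 in OV90 and 30.9 ± 8.80 in OV90CisR2 (SD, n = 3; limma adjusted p = 0.086) and was not called.

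Other developmental transcription factors rose too. Of 33 SOX, GATA and forkhead factors, 4 rose and none fell (12.1% called, against 3.29% of all tested genes, median log2 fold change -0.06). Without the 2 libraries that stood apart 9 rose and 4 fell, where 25.5% of all tested genes were called. With OV90CisR2 replicates 1, 2 and 3 omitted in turn, 1, 2 and 1 were called, and 8 without OV90 replicate 3 and 7 without OV90CisR1 replicate 3. Of the 4 rises, SOX11 lay under 1 CPM in every OV90 library, so its direction is in part set by the filter. SOX11, a factor of neural progenitors (chromosome 2, 5692384 to 5701385), had 3.08, 5.84 and 1.8 normalised reads in OV90 and 154, 150.5 and 198 in OV90CisR2, a change of 5.29 ± 0.33 (SE; limma adjusted p = 4.9e-06). FOXP1 had 25.7, 17.5 and 0 and 237, 250.2 and 229 (log2 4.92 ± 0.93, adjusted p = 0.015). OV90 replicate 3, at 0, widened the spread of FOXP1 in its group, and the call was lost without any 1 OV90CisR2 library (adjusted p up to 0.077). GATA2, a haematopoietic and trophoblast factor, had 387, 374 and 666 and 1109, 946 and 1178 (log2 1.23 ± 0.26, adjusted p = 0.026), and FOXJ2 had 313, 263 and 325 and 557, 493 and 552 (log2 0.83 ± 0.14, adjusted p = 0.0065). The GATA2 call was lost without OV90 replicates 1 or 2 or any OV90CisR2 library, and the FOXJ2 call without OV90CisR2 replicates 1 or 3 (adjusted p up to 0.12 and 0.056). Of 32 nuclear receptors, 3 rose and none fell (9.38% called, against 3.29% of all tested genes). NR5A2 was among these rises, at 0 in OV90, and passed the filter through the resistant lines. Besides NR5A2 these were ESRRG, with 10.3, 22.4 and 12.6 and 40.9, 57.7 and 43.1, and NR2F2, a factor of mesenchymal tissues, with 829.8, 849.7 and 1451 and 2125, 2187 and 2051 (log2 1.07 ± 0.19, adjusted p = 0.01). The NR2F2 call was lost without OV90 replicate 1 or any OV90CisR2 library and the ESRRG call held only when the omitted library was OV90 replicate 2 or OV90CisR1 replicate 3 (adjusted p up to 0.058 and 0.19).

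Further factors were picked after their values were seen. BARX2 had 7.2, 0.973 and 3.6 normalised reads in OV90 and 88, 70 and 125 in OV90CisR2, a log2 change of 4.46 ± 0.69 (SE; limma adjusted p = 0.0048). LHX4 had 0, 0.973 and 1.8 and 22.5, 16.6 and 18.5 (log2 3.5 ± 0.51, adjusted p = 0.0032), and TBX18 rose from 0 reads in OV90 to 18.4, 12.2 and 21.1, at least 5.6-fold higher. DLX5, a homeodomain factor of limb and craniofacial bone named by the size rule, had 77.1, 94.4 and 158 and 462, 315 and 450.4 (log2 1.93 ± 0.37, adjusted p = 0.016), a call lost when OV90 replicate 1 or 2, or OV90CisR2 replicate 1 or 3, was omitted (adjusted p up to 0.094). Of 17 KLF, SP, EGR and AP-2 factors, 2 fell and none rose (11.8% called, against 3.29% of all tested genes). The median log2 fold change of the list was -0.24. KLF6 had 2674, 2416 and 2251 and 1602, 1702 and 1616 (log2 -0.57 ± 0.12, adjusted p = 0.021), and KLF11 212, 187 and 148 and 94.2, 95.3 and 99.4 (log2 -0.90 ± 0.19, adjusted p = 0.029). Both KLF calls were lost without OV90 replicates 1 or 2 or any OV90CisR2 library (adjusted p up to 0.12 and 0.14). By contrast 4 of 427 ZNF-named zinc finger genes rose (0.937%) and none fell, a share below the 2.35% of all tested genes.

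A share of the rises lay near each other along the chromosomes. Of 330 rises with a known place, 112 (33.9%) lay in 43 runs of 2 or more called rises with gaps of at most 200 kb, against 11 of 134 falls (8.21%) in 5 runs. Rises outnumber falls, so these shares are a description. A run is bounded by its own called rises, so nothing is read from the share of its genes that rose. The longest run after HOXD lay on chromosome 6 between 116249964 and 116632985, where 7 of 9 tested genes rose. In it TRAPPC3L, a paralogue of a vesicle tethering subunit, had 1.03, 2.92 and 0 normalised reads in OV90 and 417, 496 and 423 in OV90CisR2, a log2 change of 7.80 ± 0.57 (SE; limma adjusted p = 1.4e-05). CALHM4 and CALHM5, of the calcium homeostasis modulator family, had 0, 0.973 and 2.7 and 7.2, 11.7 and 2.7 in OV90 and 165, 122 and 208 and 72.7, 73.5 and 79.2 in OV90CisR2. TRAPPC3L and CALHM4 lay under 1 CPM in every OV90 library and passed the filter through the resistant lines. DSE, an epimerase of dermatan sulfate synthesis, rose in the same run from 296, 284 and 277 to 482, 457 and 489 (log2 0.73 ± 0.12, adjusted p = 0.0061), a call lost without OV90CisR2 replicate 3 (adjusted p = 0.051).

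Other neighbours included AMBN and ENAM on chromosome 4, which encode proteins of tooth enamel. Both had 0 reads in OV90 and reached 66.5, 46.4 and 61.6 and 63.5, 50.7 and 61.6 normalised reads in OV90CisR2, at least 18.9-fold and 19-fold higher. LINC00473, a long non-coding RNA induced by cyclic AMP signalling in other cells, lies beside PDE10A and rose from 0 reads to 58.3, 44.6 and 67.7, at least 18.4-fold higher (limma adjusted p = 0.00066). KCNJ8 with ABCC9, and PDK4 with ASB4 and DYNC1I1, formed further runs.

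Over whole chromosomes, chromosome 6 held the highest share of called genes, 43 rises and 5 falls among 726 tested genes (6.61%, against 3.29% over all). On its part from 100 Mb onward, 29 of 233 tested genes rose (12.4%) and 0 fell by limma or edgeR (1 fell with DESeq2, and 4 were lower at an unadjusted p under 0.05), the median log2 fold change was 0.34, and 80.3% of the genes lay above 0, against 50.4% of all genes with a known place. Below 100 Mb, 14 of 493 rose and 5 fell, with a median of 0.12, and 7 of these rises lay among 61 genes between 80 and 100 Mb, where the median was 0.30. Between 0 and 20 Mb the median was 0.24 (0.28 without OV90 replicate 3), and 79.4% of genes lay above 0. The limit at 100 Mb was set after the values were seen and is no boundary in the data. In windows of 20 Mb from 100 Mb onward the median was 0.31, 0.49, 0.30 and 0.43, and without OV90 replicate 3 it was 0.31, 0.45, 0.11 and 0.09. The median from 100 Mb onward was 0.28 without OV90 replicate 3 and 0.28 against OV90CisR1, so the shift was seen against both other lines. SGK1, a kinase induced by corticoids and osmotic stress, lies there and had 7.2, 10.7 and 1.8 normalised reads in OV90 and 168, 238 and 203 in OV90CisR2 (log2 4.97 ± 0.44, adjusted p = 7.3e-05). TPD52L1 lies there too, with 522, 457 and 420.0 and 1129.8, 1071 and 1138 (log2 1.26 ± 0.13, adjusted p = 0.00023). Chromosome 14 lay on the other side, with 15 falls and 6 rises among 505 genes, a median of -0.19, and 27.3% of genes above 0. Chromosome 13 had a median of 0.27 with all libraries and 0.10 without OV90 replicate 3. The window of chromosome 16 from 80 to 100 Mb had a median of 0.37 (0.38 without OV90 replicate 3), with 80.2% of genes above 0. Whether the number of copies of these chromosomes differed between the lines was not tested.

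**Figure D4:**
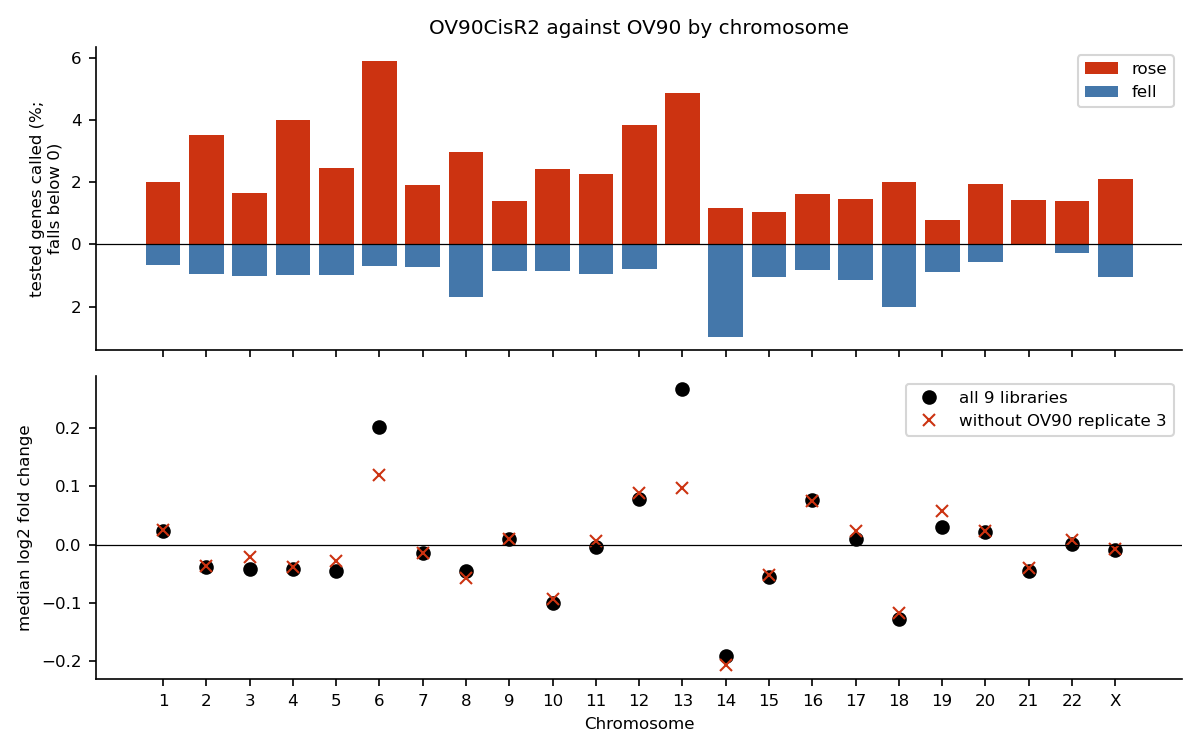
Upper panel, share of tested genes on each chromosome, in percent, that rose (red, upward) or fell (blue, downward) in OV90CisR2 against OV90; lower panel, median log2 fold change per chromosome with all 9 libraries (black) and without OV90 replicate 3 (red cross). Chromosome 6 has the highest share of rises, 5.92%, chromosome 14 the highest share of falls, 2.97%, and the median of chromosome 13 depends most on OV90 replicate 3.

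Reads at some small nucleolar RNA genes of the H/ACA class were higher in OV90CisR2. Of the 182 deposited SNORA symbols, 34 passed the filter, and 13 of them rose and 0 fell. Of these 34, 7 reached 1 CPM in all 3 OV90 libraries, and the other 27 needed reads of the resistant lines to pass, so that their direction is in part set by the filter. Among the 7, 2 rose, and the log2 fold changes ran from 0.24 to 3.58. In 16 of the 34 the libraries of OV90 and OV90CisR2 overlapped. Of 29 small Cajal body RNA symbols 15 passed the filter, 2 of them at 1 CPM in all 3 OV90 libraries, and 3 rose (1 without OV90CisR2 replicate 2 or 3, and 5 without OV90 replicate 3 or OV90CisR1 replicate 3). Of 26 C/D box genes tested, 7 of them at 1 CPM in all 3 OV90 libraries, 0 were called by limma, edgeR or DESeq2 (3 at an unadjusted p under 0.05). The 3 classes were formed after the values were seen, and whether the classes differed from each other was not tested. A 3' kit that primes on poly(A) is not made for these RNAs, which carry no stable poly(A) tail, so the values are reads assigned to these symbols and not levels of the mature RNA.

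SNORA62, which was shown above, had 9.25, 4.87 and 5.4 normalised reads in OV90 and 129, 138 and 122 in OV90CisR2, a log2 change of 4.17 ± 0.35 (SE; limma adjusted p = 4.9e-05). OV90CisR1 had 22.2 ± 8.53 (SD, n = 3), and the resistant lines differed by 2.57 ± 0.35 (SE; limma adjusted p = 0.0018). SNORA67 had 13.4, 21.4 and 7.2 and 130.0, 262 and 129 (log2 3.58 ± 0.44, adjusted p = 0.00085), and SNORA80E 1.03, 4.87 and 0.899 and 43, 82.2 and 55.4 (log2 4.39 ± 0.53, adjusted p = 0.00083). OV90CisR2 replicate 2 was the highest library in all 3. SCARNA9, a small Cajal body RNA, had 103, 126 and 69.3 and 297, 515 and 312 (log2 1.90 ± 0.32, adjusted p = 0.0073). Summed over all 182 SNORA symbols, whether tested or not, the level was 1043, 811 and 480.3 in OV90, 1465, 1069 and 1646 in OV90CisR1, and 1553, 2369 and 1516 in OV90CisR2. OV90 replicate 3 was the lowest and OV90CisR2 replicate 2 the highest library, and OV90CisR1 overlapped OV90CisR2. Over the 357 SNORD symbols it was 415, 476 and 506 in OV90, 1090, 944 and 938 in OV90CisR1, and 746, 851 and 644 in OV90CisR2, so that OV90CisR1 was highest. Without the 2 libraries that stood apart 16 of the 34 tested SNORA genes passed. With 1 library left out the number was 6 without OV90CisR2 replicate 2, 8 without OV90CisR2 replicate 1 and 9 to 14 otherwise. The genes in whose span the 13 called SNORA genes lie, 10 of them tested, had a median log2 fold change of 0.14, and 0 were called by limma or edgeR and 1 by DESeq2 (1 higher and 2 lower at an unadjusted p under 0.05). Around all tested SNORA genes 1 of 28 was called. RPSA, the ribosomal protein gene around SNORA62, had a change of 0.40 ± 0.21 (SE; limma adjusted p = 0.37). A final ACA followed by 3 bases, searched on the transcript strand, ended 27 of 33 SNORA transcripts with a sequence, 8 of 13 SCARNA and 0 of 18 SNORD transcripts.

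**Figure D5:**
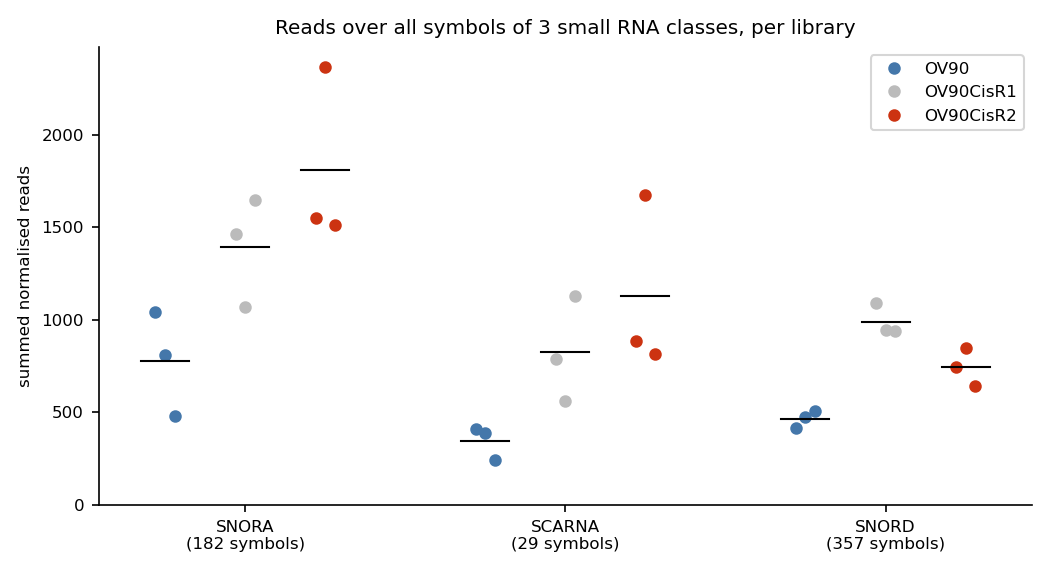
Summed normalised reads over all symbols of each small RNA class, tested or not, with 1 point per library of OV90 (blue), OV90CisR1 (grey) and OV90CisR2 (red) and black lines at the means of 3 libraries. For SNORA the OV90 libraries lie between 480.3 and 1043 and the OV90CisR2 libraries between 1516 and 2369, and for SNORD the OV90CisR1 libraries are the highest.

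Of 22 tested synaptic organiser adhesion molecules, a list formed after the values were seen, 8 rose and 3 fell, where 3.29% of all tested genes were called, and nothing is read from this share. With 1 library left out 4 to 12 were called, 4 without OV90CisR2 replicate 1. TENM2, a teneurin (chromosome 5, 166979029 to 168264157), had 7.2, 3.89 and 13.5 normalised reads in OV90 and 102, 112 and 102 in OV90CisR2, a log2 change of 3.67 ± 0.59 (SE; limma adjusted p = 0.00604), and OV90CisR1 had 2.16 ± 2.12 (SD, n = 3), so the resistant lines differed by 5.37 ± 0.59 (SE; limma adjusted p = 0.00057). FLRT2 had 0, 2.92 and 1.8 and 37.9, 26.2 and 39.6 (log2 3.98 ± 0.59, adjusted p = 0.0035) and LRRTM4 1.03, 0.973 and 0 and 13.3, 18.4 and 15 (log2 3.37 ± 0.52, adjusted p = 0.0048). PTPRD, a receptor phosphatase that binds several of these proteins, had 6.17, 6.81 and 3.6 and 36.8, 54.2 and 38.7 (log2 2.78 ± 0.32, adjusted p = 0.00058). TENM3 went the other way, with 2768, 2550.1 and 2999.6 and 2007, 1644 and 1868 (log2 -0.59 ± 0.12, adjusted p = 0.024). The TENM3 call was lost without OV90 replicate 1 or any OV90CisR2 library (adjusted p up to 0.12).

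Of 39 cadherins and protocadherins, 4 rose and none fell (10.3% called, against 3.29% of all tested genes, median log2 fold change 0.15). Without the 2 libraries that stood apart 6 rose and 5 fell, where 25.5% of all tested genes were called. Among the rises, CDH8 lay under 1 CPM in every OV90 library, so its direction is in part set by the filter. PCDH9, a protocadherin, had 9.25, 14.6 and 5.4 normalised reads in OV90 and 32.7, 59.5 and 60.7 in OV90CisR2 (log2 2.31 ± 0.38, adjusted p = 0.0065), and lost its call without OV90CisR2 replicate 3 (adjusted p = 0.053). CDH8 had 1.03, 1.95 and 0.899 and 21.5, 10.5 and 9.68, and FAT1, a giant cadherin, had 113, 82.7 and 58.5 and 196, 169.7 and 241. Their calls were lost without any 1 OV90CisR2 library, that of CDH8 also without OV90 replicate 1, and that of FAT1 also without OV90 replicates 2 or 3 or OV90CisR1 replicate 1 (limma adjusted p up to 0.12 and 0.17). Of 41 proteoglycan and glycosaminoglycan genes 3 rose and 1 fell (9.76% called, against 3.29% of all tested genes). The 6-O-endosulfatases, which edit heparan sulfate, moved apart: SULF2 had 30.8, 23.4 and 34.2 and 66.5, 71.7 and 63.3 (log2 1.18 ± 0.24, adjusted p = 0.022), and SULF1 had 16.5, 26.3 and 32.4 and 4.09, 7 and 5.28 (log2 -1.99 ± 0.40, adjusted p = 0.0202). SDC1, the heparan sulfate proteoglycan syndecan-1, had 425, 390.3 and 665 and 932, 925 and 857 (log2 0.91 ± 0.19, adjusted p = 0.024). All 3 calls were lost without OV90 replicate 2 or any OV90CisR2 library, and those of SULF2 and SDC1 also without OV90 replicate 1 (adjusted p up to 0.12). Of 51 glycosyltransferases 2 fell and none rose (3.92% called, against 3.29% of all tested genes). FUT9, which makes the Lewis x epitope, fell from 73, 75.9 and 47.7 to 14.3, 12.2 and 19.4 (log2 -2.02 ± 0.29, adjusted p = 0.0029).

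Of 19 hedgehog pathway genes, 2 rose and none fell (10.5% called, against 3.29% of all tested genes). The median log2 fold change was 0.44 against 0.00 over all tested genes. Both rises, GLI3 and SHH, lay under 1 CPM in every OV90 library and passed the filter through reads in OV90CisR2. Their direction is thus in part set by the filter, and nothing is read from the share. GLI3, a transcription factor that acts mainly as a repressor of the pathway (chromosome 7, 41960949 to 42264268), had 1.03, 0 and 2.7 normalised reads in OV90 and 82.9, 106 and 68.6 in OV90CisR2, a change of 5.45 ± 0.53 (SE; limma adjusted p = 0.00016). In OV90CisR1 it had 2.11 ± 0.988 (SD, n = 3), which was under 3 reads, as in OV90, and the resistant lines differed by 4.83 ± 0.53 (SE; limma adjusted p = 0.00058). SHH, the ligand, had 3.08, 0.973 and 0 and 14.3, 12.2 and 10.6 (log2 2.73 ± 0.65, adjusted p = 0.046) and kept its call only when the omitted library was OV90 replicate 1 or 3 or OV90CisR1 replicate 3 (adjusted p up to 0.19). IGFBP7, a secreted binding protein of insulin-like growth factors, rose as the 1 called gene of 11 in its list, from 3.08, 6.81 and 0.899 to 50.1, 35.9 and 38.7 (log2 3.42 ± 0.55, adjusted p = 0.00604), while OV90CisR1 had 2.47 ± 1.17 (SD, n = 3). Of 44 PI3K and mTOR genes PIK3C2G rose and DDIT4 fell (4.55% called, against 3.29% of all tested genes). DDIT4, a stress-induced inhibitor of mTORC1, had 67.9, 46.7 and 131 and 16.4, 14 and 15.8 (log2 -2.21 ± 0.37, adjusted p = 0.0068), and OV90 replicate 3 was the highest OV90 library.

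Among the falls, AK4, a mitochondrial adenylate kinase (chromosome 1, 65147552 to 65232145), had 247, 242 and 196 normalised reads in OV90 and 72.7, 64.7 and 80.1 in OV90CisR2, a log2 change of -1.64 ± 0.22 (SE; limma adjusted p = 0.0016). OV90CisR1 had 64.2 ± 17.3 (SD, n = 3) and was not called different from OV90CisR2 (limma adjusted p = 0.58). PAQR5, a membrane progesterone receptor (chromosome 15, 69298912 to 69407780), had 195, 187 and 261 and 64.5, 67.4 and 71.3 (log2 -1.63 ± 0.24, adjusted p = 0.0036). AK4 and PAQR5 were described after their values were seen. AHNAK2, a large scaffold protein on chromosome 14, had 883, 995 and 676 and 342, 349.9 and 289 (log2 -1.37 ± 0.16, adjusted p = 0.00063). PNMA2, a neuronal antigen, had 311, 302 and 266 and 142, 106 and 116 (log2 -1.27 ± 0.19, adjusted p = 0.0032), and MXI1, an antagonist of MYC, had 321, 338 and 388 and 203, 134 and 161 (log2 -1.08 ± 0.17, adjusted p = 0.0055). MMP10, the matrix protease stromelysin-2, had 3017, 2853 and 3639 and 1551, 1130.2 and 1721 (log2 -1.12 ± 0.19, adjusted p = 0.00897), and OV90CisR1 had 3645 ± 743 against 3169.7 ± 415 in OV90 (SD, n = 3). ENO2, the neuronal enolase, had 407, 413 and 401 and 148, 145 and 163 (log2 -1.42 ± 0.28, adjusted p = 0.018), and its call was lost without OV90 replicates 1 or 2 or any OV90CisR2 library (adjusted p up to 0.092).

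The next genes, mostly secreted regulators, were picked after their values were seen. INHBA, the activin A subunit, had 43.2, 33.1 and 43.2 normalised reads in OV90 and 7.16, 4.37 and 5.28 in OV90CisR2, a log2 change of -2.64 ± 0.36 (SE; limma adjusted p = 0.0018). FST, the activin-binding protein follistatin, had 134, 134 and 42.3 and 13.3, 20.1 and 24.6 (log2 -2.22 ± 0.44, adjusted p = 0.0204), and its call was lost without OV90 replicates 1 or 2 or any OV90CisR2 library (adjusted p up to 0.11). DIO2, the enzyme that activates thyroid hormone, had 30.8, 37 and 153 and 6.14, 4.37 and 7.92 (log2 -3.03 ± 0.51, adjusted p = 0.0073), with OV90 replicate 3 far above the rest of its group. Without that library the fold change of DIO2 was -2.31. In the opposite direction DCN, the small proteoglycan decorin, had 29.8, 43.8 and 36 and 233, 192 and 209 (log2 2.51 ± 0.27, adjusted p = 0.00032), and ANGPT1, the ligand of the TIE2 receptor, had 12.3, 32.1 and 36 and 151, 129 and 133 (log2 2.45 ± 0.36, adjusted p = 0.0032). MDM2, the ubiquitin ligase of p53, had 295, 250.1 and 286 and 514, 485 and 523 (log2 0.87 ± 0.13, adjusted p = 0.0032), and OV90CisR1 had 288 ± 8.6 against 277 ± 23.8 in OV90 (SD, n = 3).

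Protein turnover lists held few calls with all libraries and more without the 2 that stood apart. Of 52 heat shock proteins and cochaperones 2 rose and none fell (3.85% called, against 3.29% of all tested genes). Without the 2 libraries 19 rose and 2 fell, where 25.5% of all tested genes were called. HSPB3, a small heat shock protein of muscle, had 2.06, 0 and 0 normalised reads in OV90 and 27.6, 32.4 and 31.7 in OV90CisR2 (log2 4.44 ± 0.60, adjusted p = 0.0018). TCP1, a subunit of the CCT chaperonin, had 1598, 1405 and 2377 and 2800.1, 2989 and 2959 (log2 0.74 ± 0.17, adjusted p = 0.042), and OV90 replicate 3 was the highest OV90 library. The TCP1 call held only when the omitted library was OV90 replicate 3 or OV90CisR1 replicate 3 (adjusted p up to 0.17). Of 45 proteasome subunits 0 were called by limma or edgeR and 1 rose and 1 fell with DESeq2 (3 at an unadjusted p under 0.05), and 17 rose and 3 fell without the 2 libraries. Of 72 lysosomal hydrolases and proton pump subunits 1 rose and 1 fell (2.78% called), and 3 rose and 20 fell without the 2 libraries. SMPD1, acid sphingomyelinase, rose from 176, 176 and 247 to 495, 492 and 518 (log2 1.34 ± 0.17, adjusted p = 0.00102), and was higher still in OV90CisR1, at 803 ± 123 (SD, n = 3). OV90 replicate 3 differed from the mean of the other OV90 libraries by a median log2 value of 0.45 over the heat shock list, 0.43 over the proteasome list and -0.42 over the lysosomal list. The part of that library in these results was not tested beyond its removal.

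In metabolism, APRT, the adenine salvage enzyme (chromosome 16, 88809339 to 88811928), was the 1 gene called among 50 of folate and nucleotide synthesis. It had 1.03, 1.95 and 2.7 normalised reads in OV90 and 151, 105 and 118 in OV90CisR2, a log2 change of 5.47 ± 0.32 (SE; limma adjusted p = 3.9e-06). PLA2G4A, the phospholipase that frees arachidonic acid, was the 1 called of 21 prostaglandin and leukotriene genes and rose from 0 reads in OV90 to 21.5, 28 and 39.6, at least 9.62-fold higher. HSD17B12, of long-chain fatty acid and steroid metabolism, fell as the 1 called of 25 retinoid and steroid genes, from 858, 847 and 486 to 344, 357 and 361 (log2 -1.0 ± 0.20, adjusted p = 0.023), a call lost without OV90 replicates 1 or 2 or any OV90CisR2 library (adjusted p up to 0.11). Of 27 imprinted genes 3 rose and none fell (11.1% called, against 3.29% of all tested genes). PEG10, a gene of retroviral origin, was 1 of them, with 358, 289 and 151 and 621, 800.4 and 656 (log2 1.46 ± 0.26, adjusted p = 0.012), a call lost without OV90CisR2 replicates 2 or 3 (adjusted p up to 0.077).

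Of 40 neurosecretory and synaptic vesicle genes 2 rose and 2 fell, and 3 rose and 13 fell without the 2 libraries. SNAP25, a membrane fusion protein of synaptic vesicles (chromosome 20, 10218830 to 10307418), had 2.06, 0 and 0 normalised reads in OV90 and 75.7, 61.2 and 106 in OV90CisR2 (log2 5.78 ± 0.46, adjusted p = 2.6e-05), and SYTL2, of secretory granule docking, had 36, 27.3 and 11.7 and 116, 133 and 119 (log2 2.38 ± 0.35, adjusted p = 0.0031). SNAP25 is also 1 of the 10 neuronal markers, of which 8 were tested and it alone was called. The summed level of these markers was 2595 to 3329 in OV90 and 2121 to 2434 in OV90CisR2, and STMN2 among them had 735, 808 and 86 reads in OV90 and 70, 103 and 126 in OV90CisR2.

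Of 57 Rab GTPases RAB26 rose, a call that held only when the omitted library was OV90 replicate 3 or OV90CisR1 replicate 2 or 3 (adjusted p up to 0.17), and RAB29, a partner of the kinase LRRK2, fell from 413, 366 and 314 to 185, 192 and 206 (log2 -0.89 ± 0.14, adjusted p = 0.00603). Of 133 chromatin modifiers 3 rose and 1 fell (3.01%), of 94 splicing factors 2 rose and 1 fell (3.19%), and of 87 tubulins, kinesins and associated proteins 2 rose (2.30%), shares near the 3.29% of all tested genes. In 11 lists, with 337 tested genes, no member was called by limma or edgeR with all libraries, while DESeq2 called 3 up and 6 down, and 23 up and 30 down had an unadjusted p under 0.05. They were the tetraspanins, neurotransmitter receptor channels, FGF and EGF family genes, TNF superfamily and caspase genes, interleukin and JAK-STAT genes, histones, translation factors, proteasome subunits, fatty acid oxidation enzymes and muscle contractile genes. Over all 45 lists, 91 of 2401 distinct tested genes were called, 67 up and 24 down, a share near the 3.29% of all tested genes.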

How the data were processed

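Gene expression was measured in 9 libraries of 3 cell lines, 3 per line, by 3' end sequencing. The authors deposited normalised values of 43424 gene symbols in a single table, a signal on the scale of reads. The tools were Bowtie2, bedtools and edgeR and the build was GRCh38, per the submitters' processing notes. Their versions, the counting rules and the strand setting: not given in the sources used here. Nonzero values of each library were whole multiples of 1 value in 100% of cases, with a tolerance of 1e-06, so read counts were recovered from the deposited signal. The libraries held between 5825708 and 7607679 reads. Without molecular identifiers, reads are not independent molecules, and the floor of 3 reads, taken per library, covers counting error only. Genes that overlap others or share reads with near-identical copies are uncertain.

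Genes at 1 CPM or more in 3 of 9 libraries entered a limma 3.58.1 fit (R 4.3.3) of log2(value + 1) with trended variance, a mean per group over all 9 libraries and Benjamini-Hochberg adjustment over 14233 genes. A fit tested on simulated data for this comparison with 14233 genes recovered 76 of 100 genes changed 2-fold and 99 of 100 changed 4-fold, and called 7 of 14033 unchanged genes. The changed genes were drawn from those above the median level, and no library was made to stand apart. These rates therefore do not cover genes with low values or libraries like the 2 that stood apart here. Alternatives covered pseudocounts, filters, scaling, variance options, a replicate block, omitted libraries, and edgeR 4.0.16 and DESeq2 1.42.0 on the recovered reads.

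The comparison, the gene lists and the alternatives were chosen with earlier results of these data known, so lists are described by counts and medians with no set test. Named genes were the rises ranked 6 to 25 and the falls ranked 6 to 20 by fold change. They had to pass the threshold with a change of 2-fold or more, have groups without overlap, and average over the 6 libraries more than 131 normalised reads, the median of tested genes. There were 46 such rises and 14 such falls. Up to 3 rises and 3 falls from each of 45 lists, up to 6 genes with 0 reads in OV90, and the 5 rises and 5 falls with the most reads were added. Some genes that met the rule or were added are not reported here. Another 73 genes and 9 families were chosen after their values were seen, and PDK4, TRAPPC3L, HOXD11, CGA, AK4 and PAQR5 rank outside the rule. Coordinates and the promoter are from RefSeq (GRCh38.p14), where 14085 tested symbols were found. Sequences and spans of the printed small RNAs are from GENCODE 29.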

Additional observations from a re-analysis of the deposited data

How the results depend on the processing

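The count of genes past the threshold, 468 with 317 at least 2-fold, moved most with the weight given to 2 libraries. It was 3538 (938 at least 2-fold) with array quality weights, 3633 (935) when OV90 replicate 3 was omitted together with OV90CisR1 replicate 3, and 878 with DESeq2. A filter at 5 CPM left 200 genes changed at least 2-fold. With each library left out in turn the count ranged from 177 to 1312, and that of at least 2-fold changes from 164 to 601. With a replicate block the count was 287, and 236 changed at least 2-fold. Libraries of OV90 and OV90CisR2 with the same number did not deviate together (correlations of -0.018, 0.036 and -0.011), so the numbers were not taken as pairs. Rises made up 71.4% of calls, 64.7% after quantile normalisation, 80.5% with the replicate block and 54.7% without the 2 libraries. None of the 198 genes named or added changed direction under an alternative that tested it, and 36 of them were not tested with the 5 CPM filter. All 198 stayed past the threshold with DESeq2, with quality weights and without the 2 libraries, while 5 lost their call with edgeR, 24 with a pseudocount of 0.1, 50 with the replicate block and 92 without OV90CisR2 replicate 3. A gene without a call is not shown to be unchanged, since 76 of 100 genes changed 2-fold were recovered in simulated data.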
